A study of Mus musculus with 36 samples.

Results

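The intestines described here came from E18.5 mouse embryos that combine Casp8 D387A KI with KO alleles of Cflar, Mlkl, Casp1 and Fadd, called Fadd-deficient below, and were compared with intestines of Mlkl KO embryos. The members were chosen by these 2 genotype labels in E18.5 intestine and number 6 libraries, 3 of each genotype, of 36 in the whole series and of 18 intestines in the set built around caspase-8 D387A. In the D387A knock-in the aspartate at which this protease processes itself is replaced by alanine. The study asked what this caspase-8 does around birth when its regulator cFLIP, encoded by Cflar, is missing, and this comparison asks which transcripts still differ from control when the adaptor FADD is missing as well. All genes were compared, and 18360 of the 52636 genes in the files had enough reads to be tested.

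The Fadd-deficient and the Mlkl KO embryos both lack Mlkl, and they differ at Casp8, Cflar, Casp1 and Fadd together, so the parts these alleles play in a difference from Mlkl KO cannot be told apart. The other 4 genotypes of the set, with 3 intestines each, were Casp8 D387A KI, whose label names no Mlkl deletion, Casp8 D387A KI Cflar KO Mlkl KO (D387A Cflar Mlkl below), the same with Casp1 KO (D387A Cflar Mlkl Casp1), and the latter with Ifnar1 KO (D387A Cflar Mlkl Casp1 Ifnar1). By label, only D387A Cflar Mlkl Casp1 differs from the Fadd-deficient genotype by Fadd alone. All alleles are carried in the whole body, no treatment was given, and each library is 1 embryo labelled as a biological replicate. The sample titles of the Fadd-deficient embryos carry another leading number than those of every other group of the set, D387A Cflar Mlkl Casp1 included, so a difference between litters, lines or collections cannot be told apart from the genotype in any comparison here.

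As background, FADD is the adaptor that brings caspase-8 to death receptors such as FAS and the TRAIL receptors. Caspase-8 can start apoptosis, holds back necroptosis, the lytic death carried out by MLKL, and can also act as a scaffold for inflammatory signalling. Interferons signal from cell to cell through receptors that activate transcription factors such as STAT2 and IRF9, which bind a promoter sequence called the interferon-stimulated response element and switch on antiviral genes, and intestinal epithelium is known for its response to the type III interferons.

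The 18 libraries had 17943524 to 27721024 reads on genes, with 24382518 to 24600876 in the Fadd-deficient and 19713382 to 20961036 in the Mlkl KO libraries. Both groups held 1 male and 2 female embryos. No 2 libraries of a group agreed within sampling noise. The third D387A Cflar Mlkl Casp1 embryo stood apart from the other 2 of its group, and results that rest on it are given with and without it. Levels are in RPKM, read counts scaled to exon length and library size and recomputed here, listed for embryos 1, 2 and 3 of a group in that order, and differences are log2 fold changes with their standard errors (SE). A call of higher or lower required a log2 fold change beyond 1 in that direction and an adjusted p of less than 0.05.

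The targeted genes were examined first. Fadd stood at 0.204, 0.259 and 0.169 RPKM in the Fadd-deficient embryos and at 12.9, 12 and 11.5 RPKM in the Mlkl KO embryos, a log2 fold change of -5.84, SE 0.13, adjusted p = 2.1e-16. Casp1, the inflammasome protease, stood at 0, 0.0294 and 0.0587 RPKM against 41.5, 42.6 and 44.4 RPKM, with at most 2 reads in a Fadd-deficient embryo. Both genes were thus nearly silent in the embryos labelled as lacking them. Casp8, which the knock-in changes without deleting, stood at 32, 35.7 and 33.6 RPKM against 25.9, 25.9 and 24.9 RPKM. Cflar stood at 5.57, 6.54 and 7.55 RPKM against 5.8, 6.42 and 6.02 RPKM, and since the study deleted only part of that gene, while the counts cover the whole of it, these reads check nothing. Mlkl transcripts, which are read in both groups in spite of the knockout labels, were higher in the Fadd-deficient embryos at 27.6, 30.2 and 31.2 RPKM against 2.44, 2.39 and 2.67 RPKM (log2 fold change 3.57, SE 0.61, adjusted p = 0.0016), and they say nothing of MLKL protein. Ifnar1, intact by label in both groups, stood at 19.9, 21.3 and 22.3 RPKM against 21.1, 21.3 and 21.8 RPKM.

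Without FADD, the intestine still differed from control, and the differences were mostly rises led by interferon-stimulated genes. Of the 18360 genes tested, 505 were called higher and 172 lower in Fadd-deficient than in Mlkl KO intestines, which is 3.69% of the genes tested in all, 2.75% for the rises and 0.937% for the falls. At an adjusted p under 0.05 with no limit on the fold, 3335 genes (18.2%) passed. The median log2 fold change over all genes tested was -0.02. The genes called higher had a median level of 12.4 RPKM in the Fadd-deficient embryos, and 132 of the 505 rose by over 3 on the log2 scale. Those called lower had a median of 2.27 RPKM in the Mlkl KO embryos, and 12 of the 172 fell by over 3. Groups were fully separate, embryo by embryo, for 504 of the rises (2.75% of the genes tested) and 165 of the falls (0.899%). Over all genes tested, 18.6% lay above the Mlkl KO range in every Fadd-deficient embryo and 19.4% below it, so separation alone is common here.

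**Figure D1:**
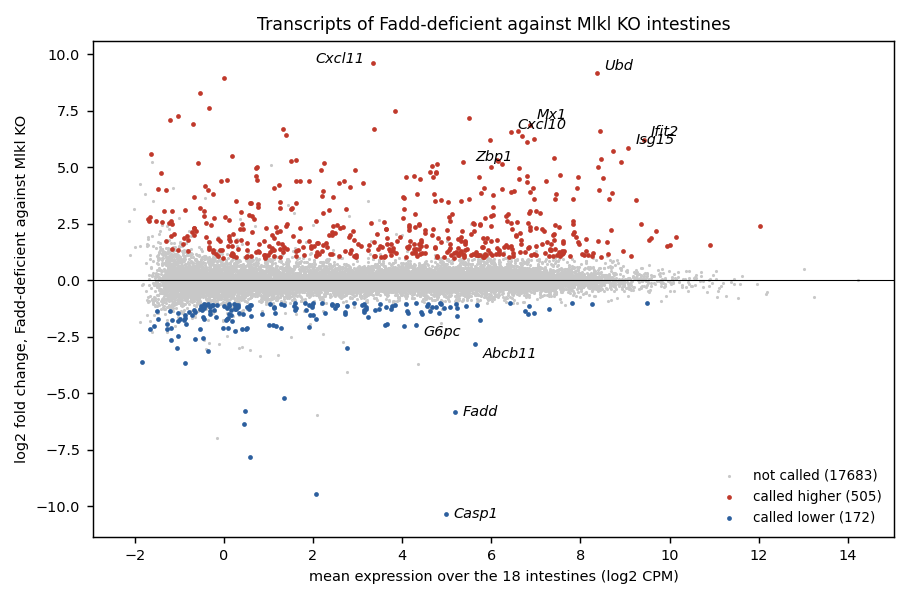
Each point is 1 of the 18360 genes tested, with its mean expression over the 18 intestines (log2 CPM, counts scaled to library size) on the x axis and its log2 fold change, Fadd-deficient against Mlkl KO, on the y axis. The 505 genes called higher (red) reach up to 9.60 on the log2 scale, and the 172 called lower (blue) have a median of -1.35, with Casp1 the lowest point and Fadd among the lowest.

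All 39 genes on a list of antiviral interferon-stimulated genes were called higher in the Fadd-deficient embryos, against 2.75% of all genes tested called higher. Their median log2 fold change was 4.07 and their range 1.26 to 7.49. Together these genes took 1.83, 1.93 and 1.83 percent of the reads in the Fadd-deficient embryos and 0.111, 0.165 and 0.117 percent in the Mlkl KO embryos, so the groups lay far apart. In whole intestine, more cells that express these genes and more RNA per cell cannot be told apart.

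The effector proteins that restrict viruses led the list. Mx1, a GTPase that blocks viral replication, stood at 113, 122 and 104 RPKM in the Fadd-deficient embryos and at 0.685, 1.13 and 1.06 RPKM in the Mlkl KO embryos, which is 118-fold higher (log2 fold change 6.88, SE 0.75, adjusted p = 6.7e-05). Every Fadd-deficient embryo was far above every control embryo. Ifit3b, of the IFIT family that binds viral RNA, stood at 190.5, 211 and 174 RPKM against 1.31, 3.34 and 2.33 RPKM (log2 fold change 6.37, SE 0.70, adjusted p = 7.4e-05). Rsad2, which makes an antiviral nucleotide, stood at 326, 353 and 350.5 RPKM against 3.12, 8.86 and 7.56 RPKM (log2 fold change 5.72, SE 0.62, adjusted p = 6.7e-05). These genes were low in controls and uniform among the Fadd-deficient embryos. Isg15, a ubiquitin-like protein that is attached to other proteins during infection, was among the highest in level, at 2070.0, 2042 and 1679 RPKM against 23.3, 48.7 and 28.4 RPKM (log2 fold change 5.85, SE 0.85, adjusted p = 0.00052). Oas3, which makes the signal that activates RNase L, stood at 51.6, 58.9 and 71.1 RPKM against 0.342, 0.924 and 0.604 RPKM (log2 fold change 6.61, SE 0.95, adjusted p = 0.00051). Apol9b had the largest rise on the list with 29.2, 28 and 27.7 RPKM against 0.0979, 0.306 and 0.0647 RPKM and a log2 fold change of 7.49 (SE 1.16), although Apol9a and Apol9b, like Ifit3 and Ifit3b or Oas1a and Oas1g, are near copies whose reads can be shared out wrongly.

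The sensors and transcription factors of the pathway rose less than the effectors named above. Ddx58 (RIG-I), a sensor of viral RNA, stood at 58.5, 65.8 and 71.6 RPKM against 13.2, 16.5 and 12.4 RPKM (log2 fold change 2.22). Ifih1 (MDA5), its partner for long double-stranded RNA, stood at 44.6, 50.9 and 49.1 RPKM against 5.07, 6.92 and 5.16 RPKM (log2 fold change 3.08). Eif2ak2 (PKR), which stops translation when it binds double-stranded RNA, had a log2 fold change of 1.76. Groups did not overlap for any of these sensors. Stat2, a factor that the receptors activate, stood at 113, 116 and 125 RPKM against 30.7, 35.1 and 29.5 RPKM (log2 fold change 1.89), and Irf9, its DNA-binding partner, had a log2 fold change of 1.26. Irf7, the factor that amplifies interferon production, stood at 595, 569.8 and 477 RPKM against 39, 65.1 and 37 RPKM (log2 fold change 3.54, SE 0.68, adjusted p = 0.0034). Usp18, which dampens signalling from the type I receptor, was also higher, at 301, 303 and 274 RPKM against 5.84, 10.1 and 4.88 RPKM (log2 fold change 5.4).

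Promoters of these genes are shown because the rises were led by genes of 1 pathway. The windows are RefSeq sequences of GRCm38.p6 from 250 bases before to 50 after each annotated start, and each stretch below is written along the gene's own strand with 10 bases on either side of the match. Capitals mark matches on either strand. In the stretches from Isg15 to Gbp2 they mark TTTC, any 2 bases and TTTC again, the core of an interferon-stimulated response element (ISRE), and in those from Cxcl2 to Ubd GGG, any 2 bases and TTTCC, a kB site.
Isg15, chr4:156200865-156200906 (- strand): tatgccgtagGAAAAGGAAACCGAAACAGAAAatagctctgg
Ifit3b, chr19:34607759-34607822 (+ strand): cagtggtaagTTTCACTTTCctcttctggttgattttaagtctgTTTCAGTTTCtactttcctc
Rsad2, chr12:26456553-26456582 (- strand): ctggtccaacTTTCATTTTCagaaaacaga
Oas3, chr5:120777715-120777744 (- strand): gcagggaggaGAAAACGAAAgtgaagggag
Apol9b, chr15:77729025-77729060 (+ strand): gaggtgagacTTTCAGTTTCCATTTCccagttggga
Cxcl10, chr5:92349083-92349112 (- strand): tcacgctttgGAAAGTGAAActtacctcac
Gbp2, chr3:142620594-142620623 (+ strand): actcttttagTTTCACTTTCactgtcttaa
Cxcl2, chr5:90903792-90903840 (+ strand): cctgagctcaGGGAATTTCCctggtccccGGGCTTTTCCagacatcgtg
Tnfaip3, chr10:19015403-19015432 (- strand): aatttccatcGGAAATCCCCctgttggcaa
Ubd, chr17:37193867-37193896 (+ strand): cattgaacttGGGGATTTCCaacccagcta
The Isg15 and Apol9b stretches hold overlapping matches in a row, the Ifit3b stretch holds matches that lie apart, and the Cxcl2 stretch holds separate kB matches.

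Over the whole table of 32851 windows, 3.44% held the ISRE letters, 1.63% the kB letters and 8.3% the letters bound by STAT dimers (GAS, which is TTC, any 3 bases and GAA). ISRE and kB matches occurred together in 22 windows and overlapped in 3, ISRE and GAS in 149 and 24, and kB and GAS in 58 and 11. A window was at hand for 12573 of the 18360 genes tested and for 341 of the 505 genes called higher, so the following counts describe only the genes with a window. Of the 484 tested genes whose window held the ISRE letters, 84 (17.4%) were called higher and 4 (0.826%) lower, and of the 12089 genes whose windows lacked it, 257 (2.13%) were called higher and 123 (1.02%) lower. For the kB letters, 15 of 258 genes (5.81%) were called higher with it and 326 of 12315 (2.65%) without it, and for GAS 47 of 1045 (4.5%) and 294 of 11528 (2.55%). A match of letters describes a window and shows no binding, and a window without one says only that these letters are not in it. Among the windows read for single genes, those of Ifit2, Irf7, H2-M2, Slfn4, Mlkl, Ubd, Icam1, Tnfaip3, Cxcl2, Reg3b, Ifnb1, Ifnl2 and Ifnl3 held no ISRE letters.

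Transcripts of interferons themselves were few, and those of Ifnb1, Ifnl2 and Ifnl3 had more reads in the Fadd-deficient than in the Mlkl KO embryos. Ifnb1, the type I interferon IFN-beta, had 12, 26 and 11 reads in the Fadd-deficient embryos and 0 reads in each Mlkl KO embryo, which is at least 14.1-fold higher with a floor of 3 reads over the control group. Ifnl2, a type III interferon, had 16, 10 and 6 reads against 0 in each control, at least 9.22-fold higher on the same floor. Ifnl3, its near copy, had 9, 18 and 8 reads against 0, 1 and 0. The ratio over the single control read was 30.3, with a 95% counting interval of 5.09 to 1230. None of these genes passed the filter on low counts, and when they were tested without that filter the adjusted p was 7.35e-05 for Ifnb1, 0.00133 for Ifnl2 and 0.00326 for Ifnl3. Ifng, the type II interferon of lymphocytes, had 1, 1 and 0 reads against 1, 0 and 0, so a difference was not detectable at this depth, and Ifne, an epithelial type I interferon, had 8 reads in all against 2. The receptor genes tested showed no call, with a log2 fold change of 0.31 for Ifnar2, 0.67 for Ifngr1 (adjusted p = 0.0052), 0.07 for Ifnlr1 and 0.02 for Il10rb. The reads of Ifnb1, Ifnl2 and Ifnl3 in the other genotypes of the set were 0 in all 3 D387A KI embryos and at most 1 in any D387A Cflar Mlkl embryo. They reached 2, 1 and 1 in the D387A Cflar Mlkl Casp1 embryo with most reads. In D387A Cflar Mlkl Casp1 Ifnar1 the 3 embryos had 4, 2 and 8 reads of Ifnb1, 1, 2 and 7 of Ifnl2 and 0, 0 and 2 of Ifnl3, so that the groups overlapped for Ifnl2.

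**Figure D2:**
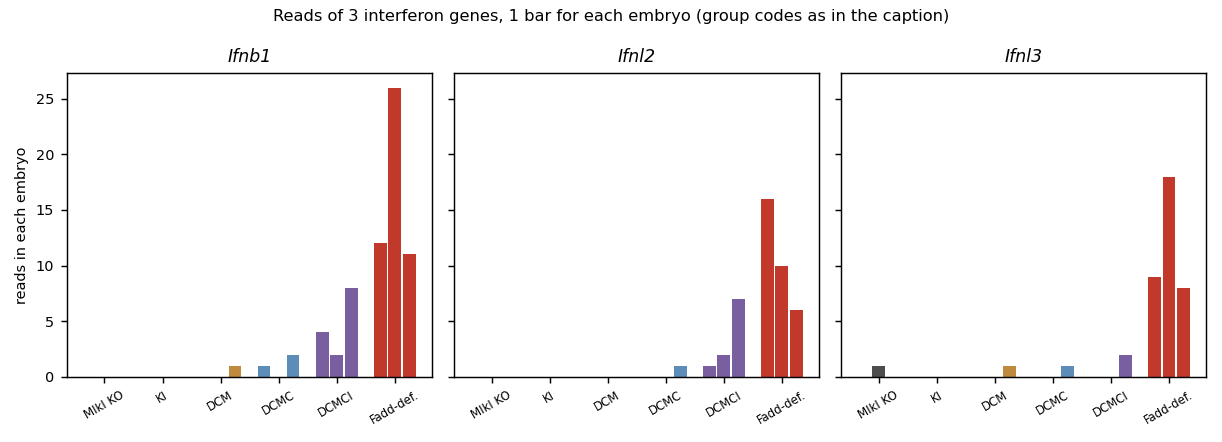
Reads of Ifnb1, Ifnl2 and Ifnl3 (y axis) in each of the 18 intestines, 1 bar for each embryo, with KI for D387A KI, DCM for D387A Cflar Mlkl, DCMC for D387A Cflar Mlkl Casp1 and DCMCI for D387A Cflar Mlkl Casp1 Ifnar1. The Fadd-deficient embryos (red) had 11 to 26, 6 to 16 and 8 to 18 reads of the 3 genes, while the Mlkl KO embryos had a single read in all.

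Genes that answer interferon-gamma as well as other interferons formed the next group. Of 25 tested, 21 were called higher and 0 lower, against 2.75% and 0.937% of all genes tested, with a median log2 fold change of 3.95, the same with Gbp10 at its lower bound. The list shares Cxcl9, Cxcl10, Cxcl11 and Gbp2 with other lists used here. Irgm1, an immunity-related GTPase that acts on vacuoles with pathogens, stood at 268, 294 and 309 RPKM against 10.4, 15.2 and 11 RPKM (log2 fold change 4.57, SE 0.49, adjusted p = 5.9e-05). Gbp3, a guanylate-binding protein of the same defense, stood at 72.5, 82.2 and 86.8 RPKM against 3.5, 4.18 and 3.08 RPKM (log2 fold change 4.49). Both were uniformly high without FADD. Gbp10 had no read in any Mlkl KO embryo and was at least 34.6-fold higher with the floor of 3 reads over the group. Gbp2 rose least among the guanylate-binding genes named here, from 3.69, 4.43 and 4.45 RPKM to 10.5, 12.4 and 9.67 RPKM (log2 fold change 1.37, SE 0.37, adjusted p = 0.022). Cd274 (PD-L1), which restrains T cells, stood at 15.1, 21.5 and 20.4 RPKM against 0.682, 0.943 and 0.759 RPKM (log2 fold change 4.58), and Socs1, an inhibitor of the receptor kinases, had a log2 fold change of 2.77. The 4 members not called were Irf8, at 0.95 just under the fold limit, Cxcl9 (2.03, adjusted p = 0.071), Ciita (-0.76, adjusted p = 0.13) and Ido1, which had no read in the Fadd-deficient embryos. Gbp2b, outside the list, went the other way with 0.251, 0.67 and 0.156 RPKM against 1.36, 1.36 and 1.59 RPKM (log2 fold change -2.0, SE 0.45, adjusted p = 0.0048), and it is a close relative of Gbp2.

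Antigen presentation split by class. Of 17 genes of MHC class I and peptide loading, 15 were called higher and 0 lower, against 2.75% and 0.937% of all genes tested, with a median log2 fold change of 2.05. B2m, the shared light chain, stood at 2162, 2182 and 2011 RPKM against 552, 604 and 556 RPKM (log2 fold change 1.89), and H2-K1, a classical heavy chain, at 1059, 1005 and 869 RPKM against 322, 355 and 304 RPKM (log2 fold change 1.58). Tap1, a subunit of the peptide transporter, rose further, from 10.4, 12.6 and 9.45 RPKM to 139, 138 and 119.7 RPKM (log2 fold change 3.62), and Nlrc5, the class I transactivator, stood at 5.55, 6.77 and 8.12 RPKM against 0.23, 0.278 and 0.222 RPKM (log2 fold change 4.81). H2-M2, a class I gene outside the list, had one of the largest rises of all, with 8.82, 7.71 and 8.44 RPKM against 0.065, 0.0339 and 0.0645 RPKM (log2 fold change 7.16, SE 0.92, adjusted p = 0.0002). Erap1, which trims peptides, and Psme2, of the proteasome activator, did not reach the fold limit, at 0.82 and 0.99. The 6 class II genes had no call, and their log2 fold changes ran from -0.82 to -0.49 with all 3 Fadd-deficient embryos below the controls in each, against 19.4% of all genes tested. H2-Aa, a class II chain of antigen-presenting cells, stood at 14.7, 18.8 and 15.7 RPKM against 29.5, 30.3 and 27 RPKM (log2 fold change -0.82, adjusted p = 0.0059).

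The study names 12 chemokine and cytokine genes and 12 further genes of pathogen defense from D387A Cflar Mlkl intestines compared with these same Mlkl KO embryos, so the lists are not independent of the controls. In the Fadd-deficient embryos 5 of the 12 chemokine and cytokine genes were called higher. These 5 calls stand against the 2.75% of all genes called higher. Cxcl10, which attracts T cells through CXCR3, stood at 95.7, 99.2 and 92.8 RPKM against 0.697, 1.38 and 0.987 RPKM, 93.8-fold higher (log2 fold change 6.55, SE 0.70, adjusted p = 5.8e-05). Cxcl11, of the same receptor, had 1191 reads in all against 1 in the controls, a ratio of 1030 (95% counting interval 184 to 40700). Ccl5, which attracts T cells and monocytes, stood at 37, 39.5 and 17.6 RPKM against 1.52, 1.19 and 1.97 RPKM (log2 fold change 4.32), with the third embryo lower than the other 2 but still above every control. Ccl7 and Cxcl2, which attract monocytes and neutrophils, stayed low, at 1.66, 1.92 and 1.15 RPKM and 0.50, 0.544 and 0.78 RPKM, with log2 fold changes of 1.74 and 3.95. The call of Ccl7 (adjusted p = 0.03) was lost under other settings. The 7 others were not called. Tnf stood at 0.405, 0.376 and 0.777 RPKM against 0.0923, 0.0321 and 0.061 RPKM (adjusted p = 0.053), Cxcl1 had an adjusted p of 0.3, Il1b one of 0.14, Ccl22 one of 0.51, Cxcl5 one of 0.92 and Il6 one of 0.81. Cxcl9 is given above.

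Of the 12 pathogen defense genes 5 were called higher, namely Mx1, Oas3, Zbp1, Gbp2 and Nos2, against 2.75% of all genes tested. The call of Gbp2 was lost in 4 of 16 alternatives, each of which left out 1 embryo, and that of Nos2 in 1, limma-voom. Nos2, the inducible nitric oxide synthase, stood at 2.52, 3.03 and 3.54 RPKM against 0.211, 0.232 and 0.116 RPKM (log2 fold change 4.02, SE 0.78, adjusted p = 0.0035). The genes not called were Acod1 (17 reads against 2, a ratio of 7.35 with a 95% counting interval of 1.74 to 65.6, adjusted p = 0.13), Gzmb (log2 fold change -0.12, adjusted p = 0.93), Ifitm1 (-0.15, 0.64), Marco (1.01, 0.38), Mmp12 (0.51, 0.77), Nox1 (1.51, 0.53) and Prf1, which had at most 1 read in each embryo. Apart from Ifitm1, all of these were under 1 RPKM in every embryo of both groups. Ubd (FAT10), a ubiquitin-like protein induced by interferon-gamma and TNF and on neither list, had the second largest rise among the genes with at least 1 RPKM, from 0.163, 0.226 and 0.806 RPKM to 255, 266 and 176 RPKM (log2 fold change 9.16, SE 1.44, adjusted p = 0.00091), although the call was lost with limma-voom.

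**Figure D3:**
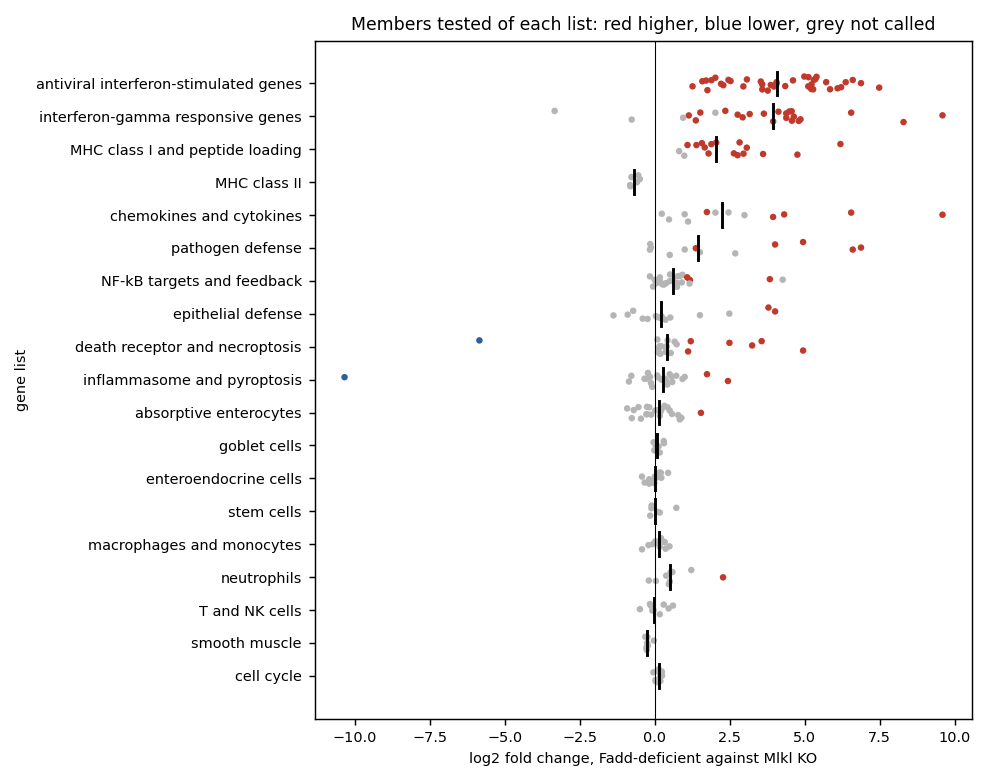
Log2 fold change, Fadd-deficient against Mlkl KO, of each tested member of 19 gene lists, with red points called higher, blue points called lower, grey points not called and a black bar at the list's median. The interferon-stimulated, interferon-gamma and MHC class I lists lie to the right with medians of 4.07, 3.95 and 2.05, while the cell type lists sit around 0, and the leftmost blue points are Casp1 and Fadd.

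Among 21 tested genes of death receptor signalling and necroptosis, 6 were called higher and 1, Fadd itself, lower, against 2.75% and 0.937% of all genes tested. Zbp1, the sensor of Z-form nucleic acids that can start necroptosis through RIPK3, stood at 97.3, 92.9 and 103 RPKM against 2.59, 3.98 and 2.91 RPKM, 30.9-fold higher (log2 fold change 4.95, SE 0.89, adjusted p = 0.0022). Tnfsf10 (TRAIL), a death ligand, stood at 28.6, 37.4 and 34 RPKM against 3.5, 4.21 and 2.79 RPKM (log2 fold change 3.25). Fas, a death receptor, had a log2 fold change of 1.21 (adjusted p = 0.0095) and Bid, the substrate that links caspase-8 to mitochondria, one of 1.12 (adjusted p = 0.0039). Mlkl, given above, was on this list as well. Ripk1, the kinase of the death receptor complex, had a log2 fold change of 0.15 and Ripk3, the kinase upstream of MLKL, one of 0.73 (adjusted p = 0.05), and neither was called.

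Of 25 tested genes of inflammasomes and pyroptosis, 2 were called higher and 1, the deleted Casp1, lower, beside 2.75% and 0.937% of all genes tested. Casp4, which senses bacterial lipopolysaccharide in the cytosol and lies next to Casp1, stood at 48.8, 52.3 and 44.9 RPKM against 9.1, 9.81 and 7.91 RPKM (log2 fold change 2.45, SE 0.38, adjusted p = 0.00077). Il1a, a cytokine released by dying epithelium, stood at 12.6, 10.8 and 18.7 RPKM against 4.37, 3.73 and 4.41 RPKM (log2 fold change 1.75, SE 0.42, adjusted p = 0.012). Gsdmd, the pore protein of pyroptosis, had a log2 fold change of 0.59 and Pycard, the inflammasome adaptor, one of 0.56, both under the fold limit. Il18, a substrate of caspase-1, stood at 31.8, 31.6 and 33.9 RPKM against 42.8, 33.9 and 41 RPKM (adjusted p = 0.26).

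Of 23 NF-kB targets tested, 3 were called higher and 0 lower, beside 2.75% of all genes called higher, with a median log2 fold change of 0.62. In 16 of the 23 every Fadd-deficient embryo was above every Mlkl KO embryo, as in 18.6% of all genes, and 21 of the 23 log2 fold changes were above 0. Ccl20, an epithelial chemokine for CCR6, stood at 31.8, 30.3 and 35.3 RPKM against 1.99, 2.51 and 2.29 RPKM (log2 fold change 3.84, SE 0.31, adjusted p = 4.2e-06), with the groups far apart. Tnfaip3 (A20), a feedback inhibitor of the pathway, stood at 12.8, 12.2 and 13.6 RPKM against 6.41, 5.5 and 5.16 RPKM (log2 fold change 1.18), and Icam1, an adhesion molecule, had a log2 fold change of 1.09. Nfkbia, the inhibitor that NF-kB itself induces, had a log2 fold change of 0.91 (adjusted p = 0.031), just under the fold limit. Atf3 and Egr1, early response factors, were the called members of a list of 10, with 40.3, 46.7 and 38.3 RPKM against 2.81, 4.15 and 3.55 RPKM for Atf3 (log2 fold change 3.58, SE 0.38, adjusted p = 4.9e-05) and a log2 fold change of 1.41 for Egr1, whereas Fos had 0.23 (adjusted p = 0.64).

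Epithelial defense genes were mostly at control level. Of 16 tested, Nos2 and Saa3 were called higher and 0 lower, beside 2.75% and 0.937% of all genes tested, and the median log2 fold change was 0.20. Reg3g, an antibacterial lectin, stood at 5.05, 6.5 and 4.84 RPKM in the Fadd-deficient embryos and 5.17, 3.41 and 4.15 RPKM in the Mlkl KO embryos (log2 fold change 0.36, SE 0.62, adjusted p = 0.75). Reg3b, its close relative, stood at 27.3, 23.4 and 15.2 RPKM against 45.6, 27.4 and 34.9 RPKM (log2 fold change -0.71, SE 0.45, adjusted p = 0.32). The Reg3g values of the groups overlapped, while Reg3b was slightly lower in each Fadd-deficient embryo. Duox2 and Nox1, oxidases that make reactive oxygen at the epithelial surface, were under 1 RPKM in every embryo of both groups. Saa3, an acute phase protein, stood at 4.71, 4.47 and 2.31 RPKM against 0.387, 0.242 and 0.192 RPKM (log2 fold change 3.8), and its call and that of Nos2 were lost with limma-voom.

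The falls were fewer than the rises and mostly in genes of low level. Of the 12 largest falls in annotated genes with at least 1 RPKM and no overlap between the groups, Casp1 and Fadd led, Pga5 followed, and several were transporters and metabolic enzymes. Abcb11, a transporter that exports bile salts, stood at 2.52, 2.91 and 4.4 RPKM against 23.6, 21.1 and 24.3 RPKM (log2 fold change -2.81, SE 0.50, adjusted p = 0.002). G6pc, the last enzyme of glucose release, stood at 2.97, 3.9 and 5.46 RPKM against 16.9, 16 and 16 RPKM (log2 fold change -1.99, SE 0.25, adjusted p = 6.3e-05). Slc47a1, an exporter of organic cations, stood at 2.65, 2.97 and 3.96 RPKM against 14.1, 11.2 and 13 RPKM (log2 fold change -2.0). The separation of the groups in these genes was a condition of their choice. At lower levels, under 4 RPKM in controls, fell Rdh7, a retinol dehydrogenase, by a log2 fold change of -2.15, Csrp3, a muscle LIM protein, by -2.1, Acaa1b, a peroxisomal thiolase, by -2.09, Slc27a2, an importer and activator of fatty acids, by -2.06, and Pbld1 by -1.98. Pga5, a pepsinogen of the stomach, was called lower at -3.0, but the fall rests on the third Mlkl KO embryo, at 3.17, 3.97 and 57 RPKM against 2.97, 2.92 and 2.11 RPKM. That embryo also carried most of the reads of Gkn1 and Gkn2, stomach genes whose falls changed sign without it (0.18 and 2.65), and the 9 stomach markers summed to 6.81, 7.04 and 234.7 CPM in the Mlkl KO embryos and 5.18, 5.50 and 17.4 in the Fadd-deficient embryos. Of the 172 falls, 6 had over 80% of the control signal in 1 embryo, and of the 505 rises none had over 80% of its signal in 1 Fadd-deficient embryo.

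Absorptive enterocytes, the main epithelial cells, were well represented, since their 25 markers summed to 63064 to 68570.0 CPM in the Fadd-deficient and 56821 to 65000.0 CPM in the Mlkl KO embryos. Of 24 tested, 1 was called higher and 0 lower, beside 2.75% and 0.937% of all genes tested, with a median log2 fold change of 0.14. Anpep, a brush border peptidase, was the one called, at 951, 966 and 1033 RPKM against 358, 345 and 307 RPKM (log2 fold change 1.55, SE 0.22, adjusted p = 0.00014). Fabp1, a fatty acid carrier, stood at 5013, 4791 and 4700.0 RPKM against 6619, 6916 and 6331 RPKM (log2 fold change -0.45, adjusted p = 0.036), below control in every embryo but under the fold limit, and Lct, lactase, had -0.70 (adjusted p = 0.25). The markers of goblet, enteroendocrine and stem cells, smooth muscle, fibroblasts and endothelium had no call in either direction, with list medians between -0.25 and 0.09, and neither did cell cycle genes, with a median of 0.14.

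Immune cell markers showed few calls as well, in a comparison where 2.75% of all genes tested were called higher and 0.937% lower. The 12 macrophage and monocyte markers had no call and summed to 563 to 592 CPM against 471 to 509 CPM. T and NK cell markers summed to 13.4 to 17 CPM against 11.1 to 14.5 CPM, with no call among the 9 tested, and the defining markers Cd3d and Cd3e had at most 5 reads in a Fadd-deficient embryo. The 10 neutrophil markers summed to 40.9 to 72.1 CPM against 14.1 to 33.4 CPM, ranges that did not overlap. That sum includes Ltf, lactoferrin, which epithelium also makes and which was the 1 call among the 9 tested. Ltf stood at 15, 17.2 and 12.5 RPKM against 3.2, 3.23 and 2.75 RPKM (log2 fold change 2.28). It was also the 1 marker above the Mlkl KO range in every Fadd-deficient embryo, as were 18.6% of all genes tested, while the groups overlapped for the other 8. S100a8, the leading neutrophil marker, stood at 10.8, 9.86 and 2.98 RPKM against 1.66, 12 and 3.5 RPKM, so the groups overlapped. Ly6a, a marker of the fetal-like state that interferon also induces, was called higher at 57.7, 59.8 and 37.1 RPKM against 11.4, 9.63 and 9.36 RPKM (log2 fold change 2.35), while none of the 5 other markers of that state was called. S100b, a marker of enteric glia, was the 1 of 8 neuron and glia markers called, beside 0.937% of all genes tested called lower. It stood at 1.34, 1.39 and 1.72 RPKM against 3.16, 3.5 and 3.81 RPKM (log2 fold change -1.23). Transcripts of neighbouring organs varied by embryo: the 9 pancreatic markers reached 72.5 CPM in the third Fadd-deficient and 62.1 CPM in the third Mlkl KO embryo, against 4.16 to 17.0 CPM in the others, and Alb, liver albumin, stood at 3.05, 135 and 1.62 RPKM in the Mlkl KO embryos. The part of such admixture in the differences above was not tested.

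Genes near a targeted locus can differ because of sequence that travels with it. Within 5 Mb of Fadd, 7 of 122 tested genes were called (5.74%), namely Slc25a22, Paox, Ifitm3, Irf7 and Gm6376 higher and Urah and Fadd lower. Within 5 Mb of Casp1, 2 of 37 were called (5.41%), Casp1 and Casp4, within 5 Mb of Casp8 and Cflar 1 of 70 (1.43%), Spats2l, and within 5 Mb of Mlkl 1 of 77 (1.3%), Mlkl itself. The share over all genes tested was 3.69%. Slc25a22, a mitochondrial glutamate carrier, stood at 87.9, 98.2 and 97.2 RPKM against 31.8, 31.4 and 30.2 RPKM (log2 fold change 1.6), Paox, a polyamine oxidase, had 1.4, and Urah, an enzyme of urate breakdown, had -1.27 (adjusted p = 4.3e-06). Linkage to the edited loci cannot be told apart from the genotype for these genes. Against D387A Cflar Mlkl Casp1, which has the same Casp8 and Cflar alleles by label, Spats2l was called higher too. Its log2 fold change there was 1.47 (adjusted p = 0.0035), and 2.07 without the third of those embryos. In that comparison, with all embryos, 9 of the 122 genes near Fadd were called, Fadd among them, beside 3.29% of all genes tested.

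The Casp8 D387A KI embryos served as a second control group, in which Cflar, Casp1 and Fadd are intact by label. Against them 523 genes were called higher and 283 lower in the Fadd-deficient embryos (4.39% of the genes tested, 2.85% higher and 1.54% lower), with the same Fadd-deficient embryos in both comparisons. All 39 antiviral genes were called higher here too, with a median log2 fold change of 4.01. Mx1 differed by 6.82, Cxcl10 by 6.76 and Zbp1 by 4.52 on the log2 scale, beside 6.88, 6.55 and 4.95 against Mlkl KO. Abcb11 fell by a log2 fold change of -3.01 and G6pc by -2.49, and the stomach genes Gkn1 and Gkn2 were not called. Of the 2 control groups, D387A KI had the higher Reg3g, at 35.2, 17.4 and 27.1 RPKM, so Reg3g was called lower against it (log2 fold change -2.27, SE 0.56, adjusted p = 0.011). Between the control groups themselves, 1 gene of 18360 was called (0.00545%), Olfm2, an extracellular protein of neural tissue, which stood at 0.398, 0.742 and 0.639 RPKM in D387A KI and 1.95, 2.0 and 2.28 RPKM in Mlkl KO embryos.

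D387A Cflar Mlkl Casp1 embryos, which differ from the Fadd-deficient embryos by Fadd alone as labelled but also in the leading number of their titles, had lower levels of most antiviral genes and higher levels of epithelial defense genes. In this comparison 454 genes were called higher and 150 lower without FADD (3.29%, of which 2.47% higher and 0.817% lower). When the third D387A Cflar Mlkl Casp1 embryo was left out, 734 were called higher and 163 lower of the 18690 genes tested in that fit. Of the 39 antiviral genes, 27 were called higher in the Fadd-deficient embryos with a median log2 fold change of 1.81, and 38 with a median of 3.01 without that embryo. Mx1 stood at 8.39, 14 and 57.7 RPKM in the D387A Cflar Mlkl Casp1 embryos, below each of the Fadd-deficient values given above (log2 fold change 2.08, SE 0.56, adjusted p = 0.024, and 3.33 without the third embryo). Zbp1 stood at 5.8, 7.87 and 75 RPKM, which gave no call with all embryos (adjusted p = 0.14) and a log2 fold change of 3.83 without the third. Cxcl10 stood at 25.4, 35.8 and 142 RPKM, so that the third embryo exceeded the Fadd-deficient ones, and it was not called (adjusted p = 0.53) unless that embryo was left out (1.65).

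Epithelial defense genes went the other way. Of 16 tested, 8 were called lower and 0 higher in the Fadd-deficient embryos, beside 0.817% and 2.47% of all genes tested. The count was 8 again without the third D387A Cflar Mlkl Casp1 embryo, where 163 of all 18690 genes tested were called lower and 734 higher. Reg3g stood at 153, 158 and 744 RPKM in the D387A Cflar Mlkl Casp1 embryos against 5.05, 6.5 and 4.84 RPKM without FADD (log2 fold change -6.01, SE 0.62, adjusted p = 5.4e-05, and -4.83 without the third embryo). Nox1 stood at 1.52, 1.65 and 8.91 RPKM against 0.104, 0.36 and 0.171 RPKM (log2 fold change -4.23, and -2.89 without it), and its call was lost when only these 2 groups were fitted (adjusted p = 0.0975). Marco, a scavenger receptor of macrophages, stood at 6.12, 5.58 and 4.73 RPKM against 0.115, 0.206 and 0.114 RPKM (log2 fold change -5.21, and -5.31 without it). These 3 genes are among the largest falls of this comparison, which were chosen for groups that do not overlap. H2-M2, which rose against Mlkl KO, was lower than in D387A Cflar Mlkl Casp1 (log2 fold change -2.23, SE 0.41, adjusted p = 0.0028, and -1.44 without the third embryo). So were Nos2 (-2.53, and -1.34 without it), Saa3 (-3.7, and -2.79) and Cxcl2 (-2.64, and -1.78). The rule for named genes gave 6 rises against D387A Cflar Mlkl Casp1, whose order changed without the third embryo. Serpina5, a serine protease inhibitor, had a log2 fold change of 3.43 (3.25 without that embryo), Slc5a12, a lactate transporter, 3.25 (4.58), Plscr2, a phospholipid scramblase, 3.14 (3.90), Amtn 3.04 (5.35), BC023105 3.03 (4.21) and Slco4c1, an organic anion transporter, 2.83 (3.68). The calls of Slc5a12 and BC023105 were lost when only these 2 groups were fitted (adjusted p = 0.0926 and 0.0691). Enterocyte markers were called higher for 6 of 24 genes and lower for 0, beside 2.47% and 0.817% of all genes tested, and for 10 and 0 without the third embryo. Among them was Fabp2, a fatty acid carrier, at 5946, 5945 and 5304 RPKM against 2614, 2890.0 and 2840.0 RPKM (log2 fold change 1.04, and 1.06 without that embryo). Erythroid markers, which reflect blood in the tissue, moved with this comparison, with 5 of 7 called lower (6 without the third embryo), beside 0.817% of all genes tested. Their sums were 378 to 987 CPM without FADD against 819.6 to 4701 CPM.

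Against D387A Cflar Mlkl embryos, which keep Fadd and Casp1, 2225 genes were called higher and 1165 lower, 12.1% and 6.35% of the genes tested. In the enterocyte list 21 of 24 were called higher and 1, the bile salt importer Slc10a2, lower in the Fadd-deficient embryos with a median log2 fold change of 3.49. In epithelial defense 13 of 16 were called lower with a median of -5.38, in pathogen defense 9 of 12 were called lower and 2 higher with a median of -3.87, and in chemokines and cytokines 9 of 12 lower and 1 higher with a median of -3.56. Reg3g stood at 6737, 6912 and 5633 RPKM in D387A Cflar Mlkl embryos, and Fabp1 at 37.2, 37.7 and 34.3 RPKM. Of the antiviral list 34 of 39 were called higher and 1, Ifi27l2a, lower in the Fadd-deficient embryos. As shares of reads, the antiviral list took 0.464, 0.32 and 0.484 percent in D387A Cflar Mlkl, 0.274, 0.352 and 1.23 percent in D387A Cflar Mlkl Casp1 and 1.16, 1.28 and 1.47 percent in D387A Cflar Mlkl Casp1 Ifnar1 embryos, all below the Fadd-deficient values, while the enterocyte list took 6.25, 6.39 and 5.89 percent in Fadd-deficient and 6.1, 6.28 and 5.7 percent in Mlkl KO embryos, which overlap, and less than either in every embryo of those 3 genotypes.

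**Figure D4:**
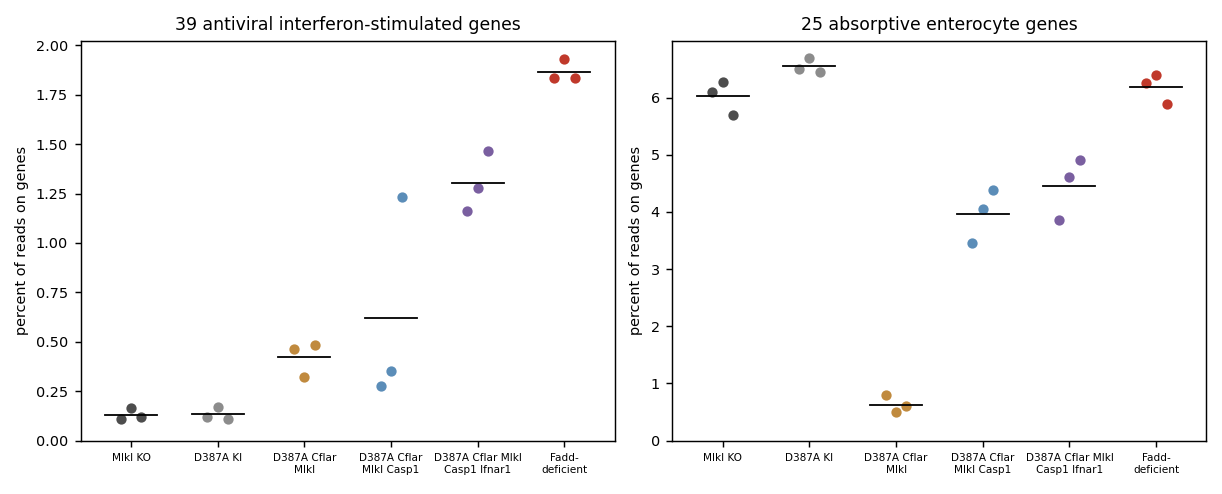
Percent of the reads on genes (y axes, from 0) taken by the 39 antiviral interferon-stimulated genes (left) and the 25 absorptive enterocyte genes (right), with a point for each embryo and a line at the mean of 3. The Fadd-deficient embryos sit at 1.83 to 1.93 percent on the left, above all other embryos, and at 5.89 to 6.39 percent on the right, near the Mlkl KO embryos.

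**Figure D5:**
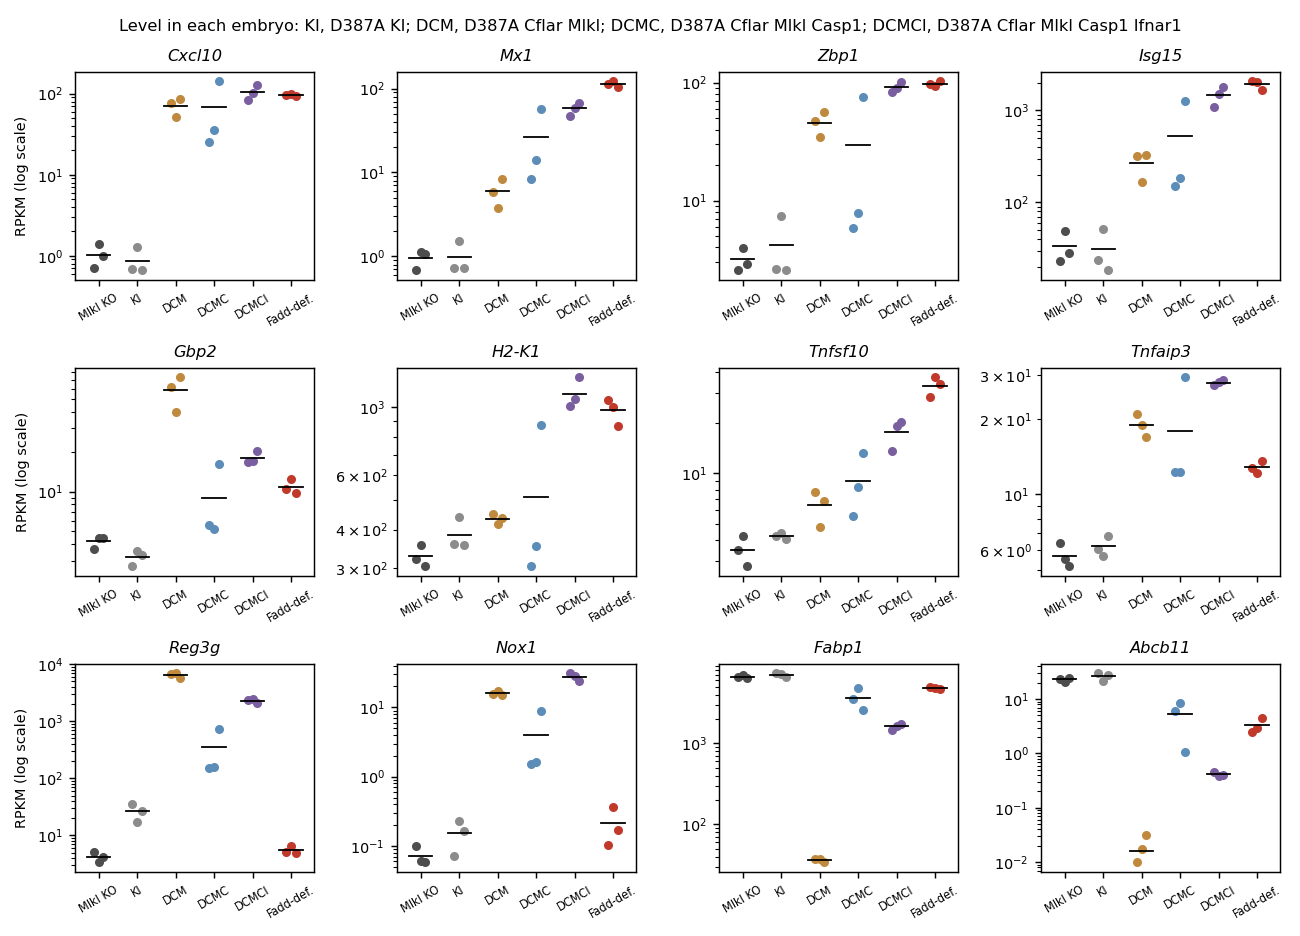
RPKM of 12 genes on log scales, each with its own range, in each embryo of the 6 genotypes, with a line at the mean of 3; KI is D387A KI, DCM D387A Cflar Mlkl, DCMC D387A Cflar Mlkl Casp1 and DCMCI D387A Cflar Mlkl Casp1 Ifnar1, and the 1 Abcb11 value of 0 RPKM is drawn at 0.01. Fadd-deficient embryos (red) have the highest mean of all groups for Mx1, Zbp1 and Isg15 and match the Mlkl KO embryos for Reg3g. The third D387A Cflar Mlkl Casp1 embryo lies above the others of its group for genes that include Cxcl10, Mx1, Zbp1, Isg15, H2-K1, Tnfaip3, Reg3g and Nox1.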

How the data were processed

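RNA of whole E18.5 intestines was sequenced, and per the labels the libraries were TruSeq RNA v2 read as single ends, whereas the study's methods name a stranded mRNA kit and another sequencer. The authors mapped reads with GSNAP to GRCm38 (mm10) per the submitters' processing notes and deposited, for each sample, counts of uniquely mapped reads per gene, RPKM and exonic width. The counter, the annotation and its strand setting are not given in the sources used here, so a gene and its antisense or overlapping partner cannot be told apart, and near copies (Oas1, Ifit3, Gbp, Irgm, Tgtp, Apol9, H2-Q, Reg3, Saa and Ifnl families) are uncertain. The deposited RPKM values were not used in a test; RPKM here was recomputed from the counts, the deposited widths and TMM library sizes. Of 52636 gene IDs, 52489 matched GENCODE M21, which gave symbols and coordinates.

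Counts of the 18 intestines were fitted together with edgeR 4.0.16 (R 4.3.3): genes with too few reads were removed (minimum count 10, minimum total 15), libraries were scaled by TMM, and robust quasi-likelihood tests were adjusted by Benjamini-Hochberg over the 18360 genes tested (biological coefficient of variation 0.132). Fold changes used a prior count of 0.125, and the SE was derived from the fold change and its F statistic. Alternatives used limma 3.58.1 (voom), DESeq2 1.42.0, other filters, scaling, samples and terms. The fit was tested on simulated data with the same spread for every gene and embryo, so that test does not cover groups of unequal spread, as found here. Embryos are separate animals, and the p-values and SE rest on a spread within groups that was estimated over all 18 intestines together. The third D387A Cflar Mlkl Casp1 embryo, which stood apart from its group, therefore enters every test. The read totals set the precision of low genes, and intervals and floors (3 reads over a group) cover counting error only.

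Members, gene lists and tests were chosen with earlier results of these data known. Genes were named by rule: the targeted genes; the study's chemokine and pathogen defense genes; the 12 largest rises and falls among called, non-overlapping, annotated genes with at least 1 RPKM (6 each against D387A Cflar Mlkl Casp1); up to 6 called and 4 highest members of each other list; and called genes within 5 Mb of a targeted locus. Other list members, Olfm2 and the genes under other observations were singled out after their values were seen. Libraries of the other experiment were used only as extra Mlkl KO controls in 1 alternative. A few list members that count in the totals are not reported here by name.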

Additional observations from a re-analysis of the deposited data

How the results depend on the processing

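The count of 677 genes called against Mlkl KO ran from 471 (a mean of at least 50 reads, which tests fewer genes) to 870 (530 higher and 340 lower, with the Mlkl KO intestines of the other experiment pooled into the controls) over 10 other settings, and from 608 to 673 when 1 embryo was left out. Against D387A KI the count of 806 fell to 513 (374 higher, 139 lower) at a mean of at least 50 reads and ran from 717 to 793 leaving out an embryo. Against D387A Cflar Mlkl Casp1 the count of 604 fell to 280 (214 higher, 66 lower) when only these 2 groups were fitted, and ran from 437 without the first to 897 without the third D387A Cflar Mlkl Casp1 embryo. Against D387A Cflar Mlkl the count of 3390 ran from 3317 to 3461 leaving out an embryo and from 2336 (a mean of at least 50 reads) to 3639 (no filter) over 9 other settings. Without the third Mlkl KO embryo the log2 fold changes of Gkn1 (-5.76) and Gkn2 (-7.83) became 0.18 and 2.65, and leaving out other embryos took them to at lowest -6.54 and -10.47. Same-numbered embryos did not deviate together (correlations of -0.012, -0.138 and 0.210 against Mlkl KO), so the numbers do not pair them; a replicate block gave 664 calls (502 higher, 162 lower). Of the antiviral list 36 to 39 of 39 were called higher against Mlkl KO over 16 alternatives, of MHC class I 15 to 16, of the interferon-gamma list 19 to 23, of chemokines 4 to 9 and of epithelial defense 0 to 3. Calls against Mlkl KO lost in at least 1 alternative, for 19 of the named genes, included Ccl7, Gbp2, Pga5, Ltf, Ly6a, Nos2, Saa3, Ubd, Icam1, Tnfaip3, S100b and Mlkl, and against D387A Cflar Mlkl Casp1 those of Nox1, BC023105, Slc5a12 and Duox2; the cause was not tested.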

Other observations

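The genes of the following paragraphs were singled out after their values were seen. No list or test covers the groups they belong to, and other members may differ. Values are given for Fadd-deficient against Mlkl KO embryos unless another group is named. Fbp1, fructose bisphosphatase, stood at 80.8, 75.8 and 61.4 RPKM against 205, 185 and 202 RPKM (log2 fold change -1.44, SE 0.18, adjusted p = 7.2e-05), and Pck1, the enzyme that commits carbon to glucose, at 38.2, 45.4 and 64.6 RPKM against 122, 116 and 119 RPKM (log2 fold change -1.27, SE 0.26, adjusted p = 0.0037). Gatm and Gamt, enzymes of creatine synthesis, were called lower as well, with log2 fold changes of -1.34 and -1.46. The fructose transporter Slc2a5 stood at 0.575, 0.738 and 0.807 RPKM against 1.92, 1.83 and 2.41 RPKM (log2 fold change -1.54), and Ptk6, a kinase of differentiated epithelium, had -1.97. Against D387A Cflar Mlkl Casp1, Fbp1 (1.91) and Gatm (1.76) were higher without FADD, also when the third of those embryos was left out (1.69 and 1.93), whereas the call of Pck1 (1.17) was lost without it (0.96). Ptk6 (-2.29, and -1.92 without that embryo) was lower there, Gamt (-0.73) was not called with all embryos and called lower without it (-1.10), and Slc2a5 (0.38, and 0.23) was not called.

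Among genes that cells use against amino acid shortage and misfolded protein, Chac1, which degrades glutathione, stood at 3.0, 2.2 and 3.03 RPKM against 0.554, 0.674 and 0.825 RPKM (log2 fold change 2.0, SE 0.34, adjusted p = 0.00055), and Ddit3 (CHOP), a transcription factor, at 132, 107 and 103 RPKM against 41.4, 47.2 and 35.1 RPKM (log2 fold change 1.47, SE 0.35, adjusted p = 0.01). The cystine importer Slc7a11 had a log2 fold change of 1.26 and the stress hormone Gdf15 one of 1.31, while Asns, asparagine synthetase, stood at 34.7, 27.4 and 30.3 RPKM against 16.8, 16.1 and 16 RPKM and was under the fold limit (0.92). Areg and Btc, ligands of the epidermal growth factor receptor, were called higher, with 10.6, 13.7 and 10.7 RPKM against 2.2, 2.16 and 2.02 RPKM for Areg (log2 fold change 2.45, SE 0.50, adjusted p = 0.0043) and a log2 fold change of 1.47 for Btc. Among sensor genes outside the antiviral list, log2 fold changes were 2.59 for Tlr3, a receptor of double-stranded RNA, 1.07 for Cgas, a DNA sensor, 0.50 for Aim2, another DNA sensor that was not called (adjusted p = 0.098), and 1.15 for Tbk1, the kinase that both pathways reach. Il18bp, the secreted inhibitor of interleukin-18, stood at 17.6, 19.9 and 20.7 RPKM against 1.1, 1.46 and 1.6 RPKM (log2 fold change 3.8, SE 0.58, adjusted p = 0.00074), and Muc3, a membrane mucin, at 359, 429 and 355 RPKM against 20.6, 12 and 17.6 RPKM (log2 fold change 4.51, SE 0.78, adjusted p = 0.0018).

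Gm42031, a long noncoding RNA on chromosome 8, was read in the embryos of some groups and not in those of others. Its levels in the D387A KI and D387A Cflar Mlkl embryos are not given here, and groups also differ in the leading number of their titles. It stood at 1.87, 2.26 and 2.2 RPKM in the Mlkl KO embryos and at 0, 0 and 0 RPKM in the Fadd-deficient embryos, and also at 0, 0 and 0 RPKM in the D387A Cflar Mlkl Casp1 embryos. In the D387A Cflar Mlkl Casp1 Ifnar1 embryos, which carry the same Casp1 allele by label, it stood at 5.18, 6.37 and 2.0 RPKM. The cause was not tested.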
